A study of Homo sapiens with 4 samples.

Results

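Complement is a cascade of plasma and cell-surface proteins that marks and lyses cells. The transcripts of 9 of its genes, led by that of the terminal component C7, were described in SK-N-BE(2), an established human neuroblastoma cell line with amplified MYCN. The members were C7, C3, C1R, C1S, CFI, CD46, CD55, CD59 and CLU, found by symbol among the 64252 Ensembl gene IDs of the count table, and all 9 matched an ID. They were chosen with the difference between the groups below already known, so their own differences are given as a description and support nothing. RNA was sequenced from cells transfected with a short hairpin RNA against TTC8 (shTTC8, 2 libraries) and from cells transfected with a scramble hairpin, labelled as the control (shScb, 2 libraries). TTC8 encodes a subunit of the BBSome, which carries membrane proteins to and from the primary cilium. All cells were of this 1 line, and the labels give neither the hairpin sequence nor whether replicate libraries are of separate cultures. The p-values therefore measure only the spread between these libraries, which may be technical, and off-target effects of a hairpin cannot be told apart from the knockdown.

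In the classical pathway, C1Q binds antibody on a surface and switches on the proteases C1R and C1S, whose cuts lead to enzymes that cleave C3, the central component. Cleavage of C5 then starts a terminal complex, in which C6, C7, C8 and several copies of C9 assemble in turn into a membrane pore. Human cells guard themselves with CD46, a transmembrane cofactor for the protease factor I (CFI), with CD55, a glycolipid-anchored protein that takes apart the C3-cleaving enzymes, and with CD59, a glycolipid-anchored protein that blocks the insertion of C9. Clusterin (CLU) is a secreted chaperone that binds the terminal complex in fluid. Liver makes most of the plasma proteins, while C7, C1R and C1S are also made by fibroblasts and other mesenchymal cells.

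Gene counts summed to 38284663 and 40863047 in shTTC8 replicates 1 and 2, and to 51168727 and 55331449 in shScb replicates 1 and 2. TTC8 had 1130 and 1268 counts in shTTC8 and 9888 and 10398 counts in shScb, so that 0.154 of its shScb level remained in shTTC8. All 8 neuroblastoma markers listed were tested, 6 called lower and 1 higher, with summed levels of 6201 and 6379 CPM in shTTC8 and 8658 and 8970.0 CPM in shScb. MYCN, the most abundant of them, stood at 3766 ± 75.4 CPM in shTTC8 and 5738 ± 109 CPM in shScb (SD, n = 2 each). CPM are counts scaled to a common library size, computed here with TMM scaling. A filter on low counts left 19610 genes. With edgeR's quasi-likelihood test, 31.9% of them were called at an adjusted p under 0.05, 15.2% higher and 16.7% lower in shTTC8. For 65.5% of tested genes the CPM of the groups did not overlap, and for 32.9% both shTTC8 libraries were the lower ones.

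Of the 9 members, 7 passed the low-count filter and C3 and CFI did not. C7, C1R, CD46 and CD59 were called lower, CLU was called higher, and CD55 and C1S were not called, against the 31.9% of tested genes called in either direction. The libraries of the groups did not overlap for 6 of the 7, with C1S the exception, against 65.5% of tested genes. Since the members were chosen on this contrast, nothing is read from these shares. The members' log2 fold changes had a median of -0.36, beside 0.004 over all tested genes. As RNA came from whole cultures, fewer cells with a transcript and less of it per cell cannot be told apart.

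**Figure D1:**
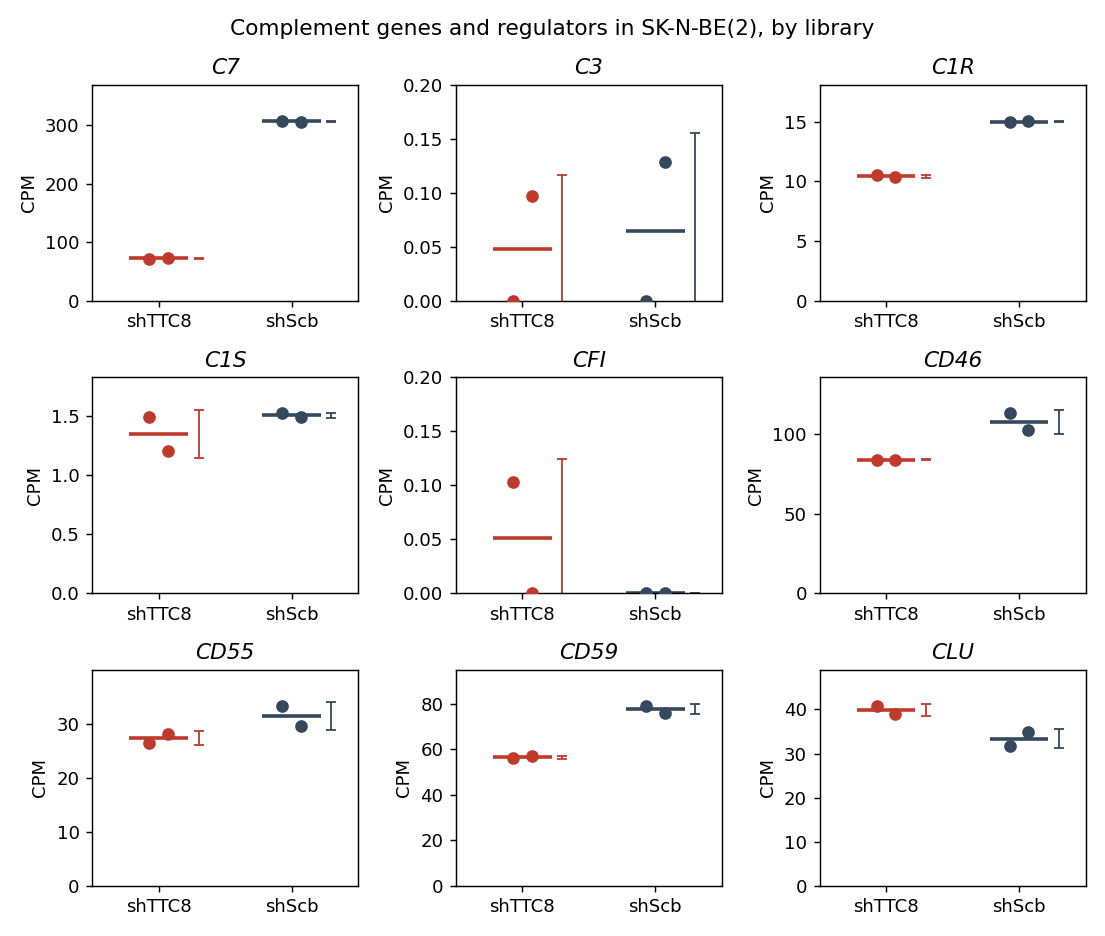
Counts scaled to library size (CPM) of the 9 members in each library, with a panel per gene and an axis from 0. Points are libraries, thick lines group means and the bars beside them SDs (n = 2), cut off at 0. C7 stands at 71.9 and 73.0 CPM in shTTC8, against 307 and 306 CPM in shScb, while C3 and CFI have no more than 7 counts in any library.

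C7 stood apart from the other members. The gene (ENSG00000112936) codes for protein and spans 40909252 to 40982939 of chromosome 5 (GRCh38, plus strand). C7 received 2792 and 3023 counts in the shTTC8 libraries and 15522 and 16629 counts in the shScb libraries, or 71.9 and 73.0 CPM in shTTC8 and 307 and 306 CPM in shScb. Within each group the libraries differed by about 1 CPM, and the groups were far apart. The log2 fold change was -2.08 (SE 0.06), a level in shTTC8 of 0.236 of that in shScb, and was the 147th lowest of the 19610 tested genes. Under the 11 alternatives it ranged from -2.11 to -2.04. Per kilobase of merged exons, C7 averaged 13.9 ± 0.155 CPM in shTTC8 and 58.7 ± 0.153 CPM in shScb (SD, n = 2 each), which placed it at rank 3208 in shTTC8 and rank 624 in shScb among the 19610 tested genes.

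The sequences upstream of C7, CD46 and CD59, members lower in shTTC8, are shown because their windows differ in base composition and motifs. They are the 250 bases before the RefSeq start in GRCh38.p14, and 6 of the 9 members, those 3 with C1R, CD55 and CFI, matched an entry. The members without one were C1S, C3 and CLU. Where a gene had several starts, the one nearest to the GENCODE start was taken. Motifs were searched on both strands, and capitals mark every match. The TATA box was searched as TATAAA and also, in a second form, as TATATA. The motif of GATA factors was spelled GATAAG, the E-box that MYC proteins bind was CACGTG, the GC box of SP1 proteins was GGGCGG, and the box of the factor NF-Y was CCAAT. No matches overlapped in these windows. The C7 window is chr5:40909247-40909496 (plus strand), CD46 chr1:207751804-207752053 (plus strand) and CD59 chr11:33736480-33736729 (minus strand).
C7: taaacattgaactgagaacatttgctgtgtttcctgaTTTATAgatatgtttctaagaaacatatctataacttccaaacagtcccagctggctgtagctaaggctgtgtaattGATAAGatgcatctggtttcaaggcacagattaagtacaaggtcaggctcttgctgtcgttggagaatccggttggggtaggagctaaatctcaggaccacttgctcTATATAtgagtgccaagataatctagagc
CD46: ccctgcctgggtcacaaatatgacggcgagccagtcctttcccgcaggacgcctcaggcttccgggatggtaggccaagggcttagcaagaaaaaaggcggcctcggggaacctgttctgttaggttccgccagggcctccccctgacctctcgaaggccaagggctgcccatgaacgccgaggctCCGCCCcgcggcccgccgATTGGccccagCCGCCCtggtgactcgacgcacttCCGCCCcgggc
CD59: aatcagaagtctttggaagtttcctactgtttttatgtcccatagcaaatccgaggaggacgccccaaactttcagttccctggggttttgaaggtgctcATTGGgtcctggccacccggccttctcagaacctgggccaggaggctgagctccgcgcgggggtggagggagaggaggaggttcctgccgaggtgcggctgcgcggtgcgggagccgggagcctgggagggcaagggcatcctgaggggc
The C7 window held 40.8% G and C, against 67.6% for CD46, 62% for CD59 and a median of 58% over 35116 promoters. C7 had TATATA starting 29 bases before its start and a reverse-strand TATAAA 213 bases before it; 12.8% of all promoters held a match to either. It also held GATAAG, starting 136 bases before the start, which 5.65% of promoters held. CD46 had 3 matches to GGGCGG, found in 42.6% of promoters, and 1 to CCAAT, found in 32.0%. CD59 had 1 match to CCAAT. The E-box was in none of the 6 windows and in 6.34% of all promoters. C1R was also lower in shTTC8, and its window, not shown, held none of the 5 motifs. Most of the C7, C1R and CFI windows and all of the CD55 window lie inside the genes as GENCODE draws them. Which starts these cells used was not tested. A match is a description of letters and not of a bound site.

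Each other gene of the terminal pathway had far fewer counts than C7. C5 had 338 and 366 counts in shTTC8 and 833 and 808 counts in shScb, and C6 had 25 and 30 counts in shTTC8 and 61 and 87 counts in shScb. C8A, C8B and C9 had no count in any library, which allows up to 3 counts per library, or 0.0552 to 0.0772 CPM, for counting error only. C8G had 2 and 5 counts in shTTC8 and 13 and 5 counts in shScb, and so did not pass the filter. Transcripts of 3 components of the pore were thus not detected at this depth in either group.

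C5, cleaved to start the terminal complex, fell by 0.84 on the log2 scale (SE 0.12, edgeR adjusted p = 6.34e-05), to 8.77 ± 0.0989 CPM in shTTC8, against 15.7 ± 1.14 CPM in shScb (SD, n = 2 each). C6, the component that C7 joins, fell by 1.03 (SE 0.34, edgeR adjusted p = 0.0296). C6 missed the threshold without shTTC8 replicate 1 (edgeR adjusted p = 0.121), shTTC8 replicate 2 (0.0669) or shScb replicate 2 (0.185), and by DESeq2 (adjusted p = 0.147). The level of C7 per kilobase was 10.3 times that of C5 in both shTTC8 libraries, and 23.3 and 25.7 times in the shScb libraries. Over C6 it was 101 and 91.4 times in shTTC8 and 231 and 173 times in shScb. C7 supplied 88.4% and 88.3% of the counts of the 7 terminal genes in shTTC8, and 94.5% and 94.9% in shScb.

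C7 also weighed on the sum over the pathway. Over 62 complement genes, the 9 members and 53 others listed from textbook knowledge, CPM summed to 560.5 and 565 in shTTC8 and to 885 and 889 in shScb. C7 took 12.8% and 12.9% of their counts in shTTC8, and 34.7% and 34.4% in shScb. The other 8 members together held 219.6 and 219.5 CPM in shTTC8 and 274 and 259.8 CPM in shScb. Of the 62 genes, 25 had no count in any library.

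**Figure D2:**
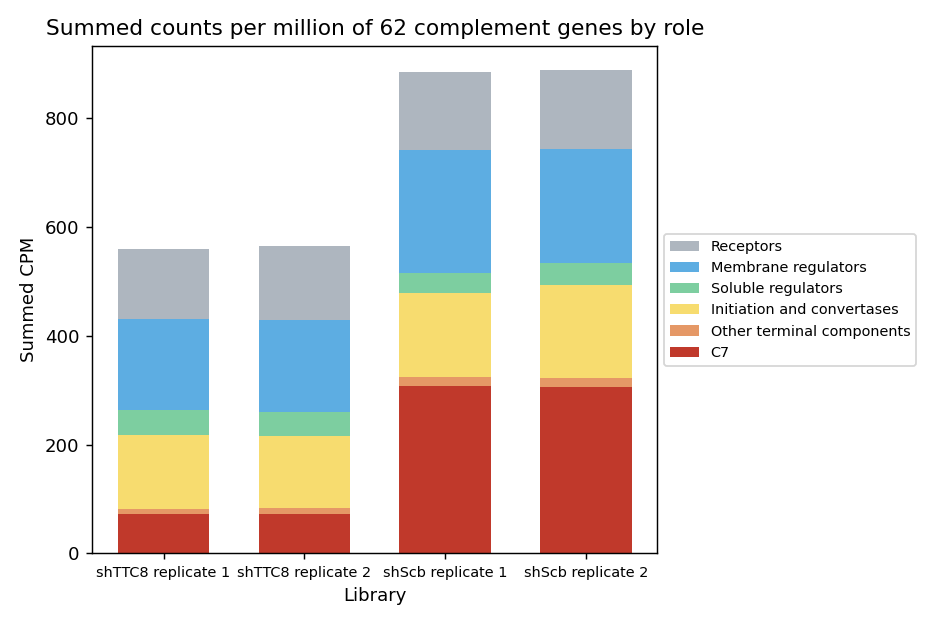
Summed CPM of 62 complement genes in each library, stacked by role on an axis from 0. C7 takes 71.9 and 73.0 CPM in shTTC8, against 307 and 306 CPM in shScb, and the 10 membrane regulator genes take 167 and 169 CPM in shTTC8, against 226 and 209 CPM in shScb.

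Of the classical pathway proteases, C1R was lower and C1S was not called. C1R (ENSG00000159403) spans 7080199 to 7092607 of chromosome 12 (minus strand). The gene had 409 and 428 counts in shTTC8 and 757 and 820 counts in shScb, or 10.5 and 10.3 CPM in shTTC8 and 14.98 and 15.09 CPM in shScb. Its groups did not overlap, and its log2 fold change was -0.53 (SE 0.11). C1R shares 672 exonic positions on the same strand with C1RL, which had 50.2% of its counts, so reads of the 2 genes may be mixed. C1S (ENSG00000182326) spans 6988259 to 7071032 of the same chromosome (plus strand). Its counts were 58 and 50 in shTTC8 and 77 and 81 in shScb, or 1.49 and 1.21 CPM in shTTC8 and 1.52 and 1.49 CPM in shScb. The groups overlapped (log2 fold change -0.16, SE 0.29). C1S is uncertain, since it shares 229 exonic positions with EMG1, whose counts were 3114% of its own.

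C3 and many other early components were near the limit of detection. C3 (ENSG00000125730), at 6677704 to 6730562 of chromosome 19 (minus strand), had 0 and 4 counts in shTTC8 and 0 and 7 counts in shScb, and no difference was detectable at this depth. The 3 C1Q chain genes C1QA, C1QB and C1QC had no count in any library. C4A and C4B are near-identical, so the split of reads between them is uncertain, and C4A also overlaps STK19, whose counts were 541% of its own. C4A had 42 and 34 counts in shTTC8 and 44 and 43 counts in shScb. C4B had 25 and 24 counts in shTTC8 and 57 and 56 counts in shScb. Neither was called (log2 fold change 0.19 for C4A and -0.82 for C4B). The alternative pathway genes CFD, a protease, and CFP, which stabilises its enzyme, were not called (log2 fold change -1.40, SE 0.58, and -0.26, SE 0.49). CFB had at most 3 counts in any library, and shares 23 exonic positions with C2, whose counts were 486% of its own.

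A recognition protein of the lectin pathway was the most abundant of the early components. COLEC11, which encodes a soluble collectin that binds sugars, averaged 118 ± 2.26 CPM in shTTC8 and 139 ± 13.9 CPM in shScb (SD, n = 2 each). It fell by 0.23 on the log2 scale (SE 0.07, edgeR adjusted p = 0.0198). It missed the threshold without shTTC8 replicate 1 (edgeR adjusted p = 0.0828), shTTC8 replicate 2 (0.148) or shScb replicate 2 (0.114). MASP2, a protease of the same pathway, missed the threshold at a log2 fold change of -0.66 (SE 0.25) and an edgeR adjusted p of 0.0613. It passed without shScb replicate 2 (edgeR adjusted p = 0.00957) and among genes with at least 1 CPM in 2 libraries (edgeR adjusted p = 0.0428). MASP2 shares exonic positions with an antisense gene that had 99.2% of its counts. MASP1 had no count in any library.

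Of the membrane regulators, CD46 and CD59 were lower, by much less than C7, and CD55 was not called. CD46 (ENSG00000117335), at 207752057 to 207795513 of chromosome 1 (plus strand), had 3271 and 3465 counts in shTTC8 and 5726 and 5573 counts in shScb. These were 84.2 and 83.7 CPM in shTTC8 and 113 and 103 CPM in shScb, with no overlap. Its log2 fold change was -0.36 (SE 0.07). CD59 (ENSG00000085063), at 33703010 to 33736491 of chromosome 11 (minus strand), had 2180 and 2361 counts in shTTC8 and 4001 and 4139 counts in shScb. These were 56.1 and 57.0 CPM in shTTC8 and 79.2 and 76.2 CPM in shScb, again with no overlap. Its log2 fold change was -0.46 (SE 0.07). CD55 (ENSG00000196352), at 207321376 to 207386804 of chromosome 1 (plus strand), had 1024 and 1167 counts in shTTC8 and 1684 and 1610 counts in shScb. Its 26.4 and 28.2 CPM in shTTC8 lay below its 33.3 and 29.6 CPM in shScb by a narrow margin. CD55 was not called (log2 fold change -0.21, SE 0.09), but was called without shScb replicate 2, at -0.29. The 3 genes together gave 167 and 169 CPM in shTTC8 and 226 and 208 CPM in shScb. Of the other membrane regulators, CR1 had no count, THBD had at most 2 counts in a library, and CSMD2 was not called (log2 fold change -0.86, SE 0.62).

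Of the soluble regulators, CLU was higher, and SERPING1 and VTN were not called. CLU (ENSG00000120885), at 27596917 to 27615031 of chromosome 8 (minus strand), had 1585 and 1612 counts in shTTC8 and 1606 and 1893 counts in shScb. Scaled to depth these were 40.8 and 38.9 CPM in shTTC8 and 31.8 and 34.8 CPM in shScb, with both shTTC8 libraries above both shScb libraries. CLU was the 1 member called higher (log2 fold change 0.26, SE 0.08). Its call was lost in 6 of the 11 alternatives, among them each fit without shTTC8 replicate 1, shTTC8 replicate 2 or shScb replicate 1, where the log2 fold change was 0.22, 0.30 and 0.19. CFI (ENSG00000205403), at 109740694 to 109802179 of chromosome 4 (minus strand), had 4 and 0 counts in shTTC8 and none in either shScb library. SERPING1, which encodes the inhibitor of C1R and C1S, stood at 4.35 ± 0.915 CPM in shTTC8 and 5.33 ± 0.374 CPM in shScb (SD, n = 2 each). Its log2 fold change of -0.29 (SE 0.19) missed the threshold at an edgeR adjusted p of 0.280. VTN, another inhibitor of the terminal complex, was not called either (log2 fold change 0.67, SE 0.73). C4BPA and C4BPB had no count in any library.

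Of the 53 other complement genes, 13 passed the low-count filter, and edgeR called 3 lower, C5, C6 and COLEC11, against 16.7% of tested genes called lower. It called none higher, with none at an unadjusted p under 0.05 and none by DESeq2. At an unadjusted p under 0.05, 6 of the 13 were lower, and the share of all genes at that threshold is not given. DESeq2 called 2 lower, beside 2880 lower of 33779 genes with a count. The list was chosen with earlier results of these data known, so nothing is read from these counts. The median log2 fold change of the 13 was -0.29, beside 0.004 over all tested genes. The number called lower was 1 without shTTC8 replicate 1 and 1 without shTTC8 replicate 2. Most receptors for complement fragments had few or no counts. C5AR1, CR2, ITGAM, ITGAX, VSIG4 and CD93 had no count, C3AR1 had at most 4 counts in a library, and C5AR2 was not called (log2 fold change 0.36, SE 0.46). C1QBP, a mostly mitochondrial protein that binds C1Q, was abundant at 131 ± 4.05 CPM in shTTC8 and 143 ± 1.18 CPM in shScb (SD, n = 2 each). Its log2 fold change of -0.12 (SE 0.06) missed the threshold at an edgeR adjusted p of 0.129. C1QBP overlaps exons of DHX33, which had 36.5% of its counts, and of RPAIN, which had 31.7%.

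**Figure D3:**
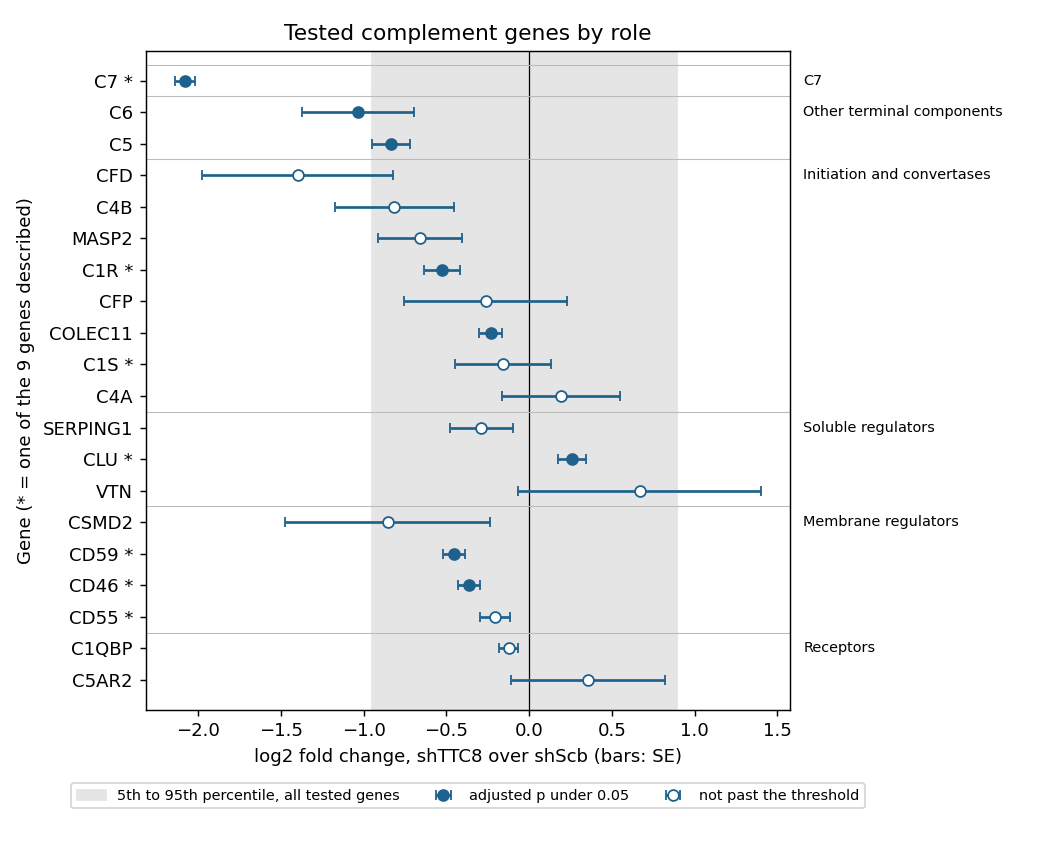
Log2 fold changes of shTTC8 over shScb for the 20 tested complement genes, grouped by role, with SEs from edgeR as bars. The grey band runs from the 5th to the 95th percentile of all tested genes (-0.95 to 0.90), and C7 lies at -2.08, below it.

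Ordered by level per kilobase of merged exons, the members in shTTC8 ran C7 (13.9 CPM per kilobase), CD46 (9.64), CLU (6.03), CD59 (5.46), CD55 (4.62), C1R (1.77) and C1S (0.209). In shScb the order was C7 (58.7 CPM per kilobase), CD46 (12.4), CD59 (7.50), CD55 (5.33), CLU (5.03), C1R (2.55) and C1S (0.233). CLU thus stood above CD59 and CD55 in shTTC8 and below both in shScb. Within a group, the libraries of neighbouring members overlapped only for CD55 and CLU in shScb. C7 led the members in both groups.

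**Figure D4:**
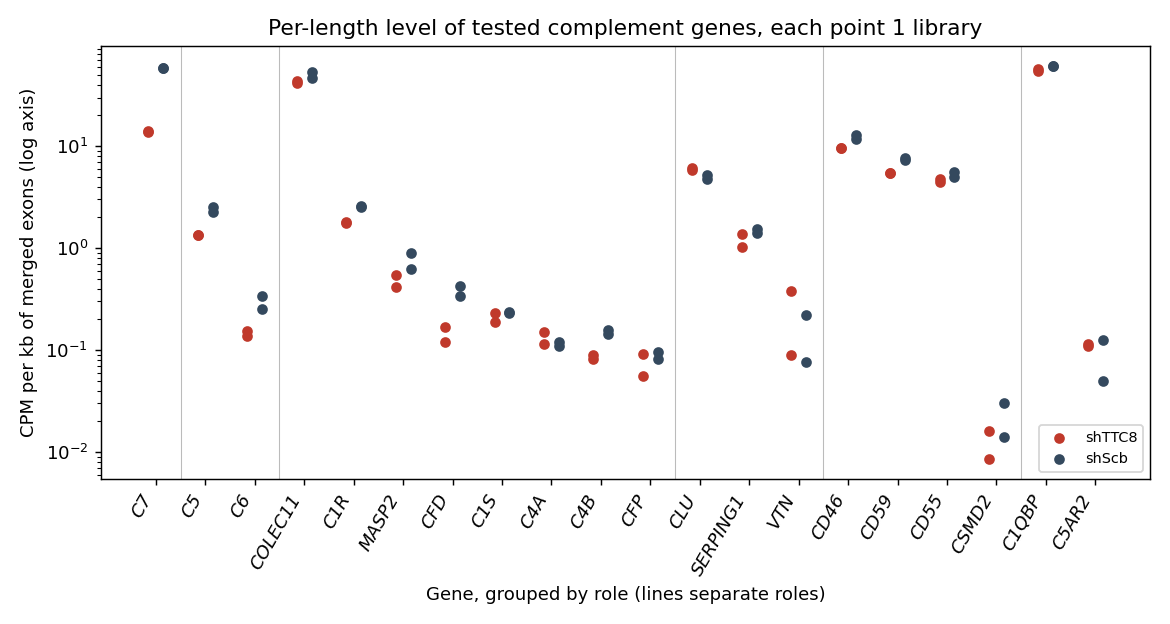
CPM per kilobase of merged exons for the 20 tested complement genes on a log axis, each point a library and lines separating the roles. C7 averages 13.9 CPM per kilobase in shTTC8 and 58.7 in shScb, where it stands between C1QBP at 61.4 and COLEC11 at 50.1.

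Markers of other cell types were examined because fibroblasts, blood cells and liver make complement proteins. The marker lists were chosen with earlier results of these data known, so nothing is read from their shares called. Most fibroblast markers tested were lower in shTTC8. Of 10 listed, 7 were tested, 6 were called lower, against 16.7% of all tested genes, and none higher by edgeR, with none higher at an unadjusted p under 0.05 and none by DESeq2. Their summed level was 504 and 479.9 CPM in shTTC8 and 769 and 773 CPM in shScb. The most abundant was FBLN1, at 260.2 ± 9.82 CPM in shTTC8 and 287 ± 16.2 CPM in shScb (SD, n = 2 each). FBLN1 was the only tested marker that edgeR did not call (log2 fold change -0.14, SE 0.06). Next were PDGFRB at 157 ± 6.18 CPM in shTTC8 and 209 ± 4.67 CPM in shScb, and LUM at 29.9 ± 1.83 CPM in shTTC8 and 185 ± 7.65 CPM in shScb (SD, n = 2 each). The matrix genes DCN and COL1A1 had log2 fold changes of -3.27 and -2.07. COL1A2 had 0 counts in both shTTC8 libraries and 7 and 5 counts in the shScb libraries, and FAP had at most 2 counts in a library. PRRX1, also not tested, ran the other way, with 4 and 14 counts in shTTC8 and 0 and 2 counts in shScb. The labels name no cells other than this line, so these values are given as transcripts of the culture. Any link between them and the C7 difference was not tested.

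Of 8 blood cell markers 3 were tested and 1, PTPRC, was called lower, against 16.7% of all tested genes called lower. The summed level was 5.41 and 4.74 CPM in shTTC8 and 17.3 and 16.3 CPM in shScb, most of it in shScb from PTPRC, which averaged 3.27 ± 0.394 CPM in shTTC8 and 15.4 ± 0.520 CPM in shScb (SD, n = 2 each). The other tested blood cell markers, CD14 and CD68, were not called and had positive log2 fold changes (0.52, SE 0.35, for CD14 and 0.58, SE 0.59, for CD68). CD68 is uncertain, since it shares 1789 exonic positions with a gene on the same strand, whose counts were 4375% of its own. It also shares 150 exonic positions with an antisense gene, whose counts were 1223% of its own. CD14 was at 1.11 and 1.06 CPM in shTTC8 and 0.811 and 0.699 CPM in shScb, with no overlap. TYROBP and AIF1 had no count in any library and LYZ had at most 2. Of 8 hepatocyte markers 3 were tested and none was called by edgeR or DESeq2, though APOA1 was higher at an unadjusted p under 0.05; the summed level was 0.901 and 1.55 CPM in shTTC8 and 0.989 and 0.754 CPM in shScb. SERPINA1, FGA and FGB had no count. Of 6 endothelial markers 2 were tested and 1, VWF, was called lower, against 16.7% of all tested genes called lower. VWF had few counts, 5 and 4 in shTTC8 and 71 and 55 in shScb. CLDN5 was not called (log2 fold change 0.21, SE 0.44). The endothelial sums were 0.927 and 0.894 CPM in shTTC8 and 2.31 and 1.60 CPM in shScb, and PECAM1 and TEK had no count. Of 6 Schwann cell markers 4 were tested and 1, NGFR, was called lower, again against 16.7% of all tested genes. The Schwann cell sums were 15.2 and 13.7 CPM in shTTC8 and 36.1 and 37.8 CPM in shScb, and SOX10 had no count.

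The genes whose pattern over the 4 libraries was nearest to that of C7 were MAOA, NOX5, DPT, NIPSNAP2 and ZNRF3. Nearness was the Euclidean distance between log2 CPM centred on each gene's mean, over 15376 genes with a mean of at least 1 CPM. With 4 libraries this mostly ranks genes by the size of the group difference. MAOA, which encodes a monoamine-degrading enzyme, was at a distance of 0.037, with 17.8 and 18.1 CPM in shTTC8 and 78.6 and 76.2 CPM in shScb. DPT encodes the extracellular matrix protein dermatopontin and had 7.18 and 7.10 CPM in shTTC8 and 31.7 and 32.7 CPM in shScb. NOX5, an NADPH oxidase gene, averaged 0.760 ± 0.0187 CPM in shTTC8 and 3.49 ± 0.145 CPM in shScb (SD, n = 2 each). NIPSNAP2 averaged 18.5 ± 1.57 CPM in shTTC8 and 74.2 ± 2.85 CPM in shScb (SD, n = 2 each). ZNRF3, which encodes a ubiquitin ligase that removes Wnt receptors, averaged 10.3 ± 0.857 CPM in shTTC8 and 47.7 ± 0.560 CPM in shScb (SD, n = 2 each).

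Genes beside the members on the chromosome did not share one direction. Within 200 kb of the start of a member lay the starts of 50 other protein-coding genes, of which 36 were tested, 7 were called higher and 8 lower, or 41.7%, against 31.9% of all tested genes. Near C7, 3 of 5 were tested and 1 was called, PRKAA1, a catalytic subunit of the energy-sensing kinase AMPK. PRKAA1 fell by 0.31 (SE 0.08, edgeR adjusted p = 0.0107), but did not pass without shTTC8 replicate 1 (edgeR adjusted p = 0.146). Around C1R and C1S all 7 called neighbours were higher, while C1R itself was lower. They included the glycolytic enzyme genes TPI1 (log2 fold change 0.54, SE 0.06) and ENO2 (0.48, SE 0.06), USP5 (0.41, SE 0.07), LPCAT3 (0.40, SE 0.09) and GPR162 (0.85, SE 0.14). Around CLU, the 3 called of 4 tested neighbours were lower, while CLU was higher. These were SCARA3, a scavenger receptor gene (log2 fold change -1.11, SE 0.09), EPHX2, an epoxide hydrolase gene (-0.56, SE 0.11), and CCDC25 (-0.51, SE 0.07). GAR1, beside CFI, encodes a protein of small nucleolar ribonucleoproteins and fell by 0.52 (SE 0.08, edgeR adjusted p = 2.20e-04).

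The other called neighbours lost their call when certain libraries were left out. P3H3 (log2 fold change 0.29) lost its call without shTTC8 replicate 1, shTTC8 replicate 2 or shScb replicate 1 (edgeR adjusted p = 0.121, 0.0533 and 0.097). ATN1 (0.17) lost it without shTTC8 replicate 1, shTTC8 replicate 2 or shScb replicate 2 (edgeR adjusted p = 0.337, 0.158 and 0.0586). TRIP10, beside C3 (-0.32), lost it without shTTC8 replicate 1 or 2 (edgeR adjusted p = 0.0732 and 0.0968). CD34, beside CD46, and C11orf91, beside CD59, were under 1 CPM in both groups, and each lost its call without shTTC8 replicate 1 (edgeR adjusted p = 0.191 for CD34 and 0.185 for C11orf91). CD34 also lost it without shScb replicate 1 (edgeR adjusted p = 0.0842) and C11orf91 without shScb replicate 2 (edgeR adjusted p = 0.220).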

How the data were processed

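Libraries were prepared from total RNA (TRIzol) with a TruSeq RNA kit from Illumina, per the labels' protocols. HISAT2 2.2.0 and hg38 are named in the submitters' processing notes. What counted the reads, with which strand setting and annotation, is not given in the sources used here. Whole-number counts per Ensembl gene, not normalized, were deposited by the authors with 1 column per library. Gene symbols were taken from a reference name table. Positions and merged exons came from GENCODE 29 (GRCh38, the assembly hg38 names).

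The test was that of edgeR 4.0.16 under R 4.3.3 (filterByExpr, TMM, robust quasi-likelihood F test, two-sided, Benjamini-Hochberg over 19610 tested genes, threshold 0.05), after a check on simulated data. An SE is the size of the log2 fold change divided by the root of its F value. CPM errors are SDs over 2 libraries. Log2 CPM used a prior count of 2. For named genes of the lists, shared exonic positions are stated where the partner had at least 10% of a gene's counts. HAND2 shares 867 exonic positions with the antisense gene HAND2-AS1, which had 49.3% of its counts. The 11 alternatives were DESeq2 1.42.0, a replicate block, a threshold of 0.01, scaling by RLE or by total alone, testing all genes or those with 1 CPM in 2 libraries, and leaving out each library.

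The members and lists were chosen with earlier results of these data known. Genes were named by rule: all members, TTC8, called genes of the complement lists and uncalled ones of the same steps, up to 4 called glycolipid-anchor genes by smallest p, abundant markers, called neighbours, and the 5 genes nearest to C7. Markers at 0 were named after their values were seen. Replicates differed by more than sampling noise, with a chi-square per degree of freedom of 6.40 in shTTC8 and 11.4 in shScb. Some genes of the lists are not reported here by name.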

Additional observations from a re-analysis of the deposited data

How the results depend on the processing

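Of the members, C7, C1R, CD46 and CD59 kept their direction and their call under all 11 alternatives, C1S stayed uncalled under all 11, and CD55 and CLU are given above. The genes called higher numbered 2974, with 1880 to 3395 when a library was left out and 1917 at an adjusted p under 0.01. The other complement genes called lower numbered 3, with 1 to 3 when a library was left out and 1 at an adjusted p under 0.01. With library size alone the median over all tested genes moved to 0.045, and 3508 genes were called higher and 2835 lower, against 2974 higher and 3284 lower with TMM. Of 62 genes followed singly across the alternatives, leaving out a library turned the sign of uncalled ones only. C4A ran from -0.018 to 0.38, VTN from -0.71 to 1.61 and CFP from -0.66 to 0.055 on the log2 scale. C5AR2 ran from -0.16 to 1.17, CLDN5 from -0.068 to 0.55 and HAND2 from -0.0037 to 0.12, and the cause was not tested. In these fits a lone library is assumed to vary like the other group. With the replicate number as a block, 3092 genes were higher and 3343 lower, and 4 other complement genes were lower, MASP2 among them (log2 fold change -0.65, edgeR adjusted p = 0.0469). The deviations of same-numbered libraries correlated at r = 0.0317 across genes, so the numbers are not taken as pairs. Depth limits C3, CFI, C6 and C1S, which had under 100 counts in each library.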

Other observations

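CD55 and CD59 reach the cell surface on a glycosylphosphatidylinositol anchor, and the enzymes that build, attach and trim it were counted as a further list. Of 28 listed genes 27 were tested, and edgeR called 5 higher and 3 lower in shTTC8, against 15.2% and 16.7% of all tested genes. Their median log2 fold change was -0.05, beside 0.004 over all tested genes. PGAP1, which removes a fatty acid from the anchor's inositol after attachment, fell by 0.39 on the log2 scale (SE 0.07, edgeR adjusted p = 9.71e-04), to 60.6 ± 1.81 CPM in shTTC8, against 79.3 ± 7.01 CPM in shScb (SD, n = 2 each). DPM3, a subunit of the enzyme that makes the mannose donor, rose by 0.62 (SE 0.12, edgeR adjusted p = 0.0015), to 25.3 ± 0.310 CPM in shTTC8, against 16.5 ± 3.13 CPM in shScb (SD, n = 2 each). Among subunits of the transamidase that joins anchor to protein, GPAA1 fell by 0.27 (SE 0.06, edgeR adjusted p = 0.0041) and PIGS rose by 0.32 (SE 0.09, edgeR adjusted p = 0.0114). PIGT, a further subunit named after its values were seen, rose by 0.23 (SE 0.07, edgeR adjusted p = 0.0171). These 3 calls were lost without shTTC8 replicate 1 (edgeR adjusted p = 0.0546 for GPAA1, 0.235 for PIGS and 0.315 for PIGT). The transamidase subunits PIGK (log2 fold change -0.08, SE 0.10) and PIGU (0.19, SE 0.08) were not called. PIGU shares 96 exonic positions with NCOA6, whose counts were 137% of its own. These are transcript levels, and surface CD55 and CD59 were not measured.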
